A study of Homo sapiens with 26 samples.

Results

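Described here are 8 transcription factor genes of luminal and hormone-responsive mammary epithelium, out of 19775 genes measured in MDA-MB-468 cells. They are the forkhead factor FOXA1, the zinc finger factor GATA3, the oestrogen receptor ESR1, the AP-2 factor TFAP2A, and the ETS family factors SPDEF, ELF3, EHF and ELF5. The genes were chosen by name, for what is known of them and with no threshold on their values, but with earlier results of these data known, so counts of those that passed are a description and not a blind test. All 8 were found, with 33 probe sets that the platform annotation gives to a single gene. Each gene is represented by the brightest of its probe sets, judged by mean log2 intensity over all 26 arrays, and the others are given beside it.

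MDA-MB-468 is an established human breast cancer line of the basal, triple-negative type, which lacks the hormone receptors by the usual clinical classification. The study measured its gene expression on Affymetrix HG-U133 Plus 2.0 arrays while signalling by NOTCH3, a cell-surface Notch receptor, was blocked or switched on. The antagonism experiment had 8 arrays and the agonism experiment had 18. In the antagonism experiment the cells were grown for 40 h and treated for 24 h. Control arrays (n = 3) had the anti-gD IgG at 10 µg/ml with 0.05% DMSO, the solvent of the inhibitor. DAPT arrays (n = 3) had that IgG at the same dose with 5 µM DAPT, a gamma-secretase inhibitor that prevents the cleavage by which all Notch receptors signal. A4 arrays (n = 2) had 0.05% DMSO and the NOTCH3 antibody A4 at 10 µg/ml. Before agonism, every group except DMSO was first held in 5 µM DAPT for 16 h, and the DMSO group in 0.05% DMSO, before all were washed and left in growth medium for 2 h. The groups, each with 3 arrays, then received DMSO, 5 µM DAPT, control IgG at 20 µg/ml, the agonist NOTCH3 antibody A13 at 20 µg/ml, beads carrying Fc alone, or beads carrying the Notch ligand JAG1 fused to Fc. Fresh DMSO or DAPT was given to its own group at 22 h, and the arrays analysed here were labelled as taken at 24 h. Every agonism group other than DMSO therefore shares the first exposure to DAPT. Nothing in the labels ties the arrays of a group to separate cultures, and the protocol speaks of a single plate for DMSO. The p-values thus measure only how far these samples spread, and that spread may be technical.

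FOXA1 is known as a pioneer factor that opens chromatin for other factors, among them the oestrogen receptor that ESR1 encodes. GATA3 is needed to form and keep luminal cells, and FOXA1, GATA3 and the receptor are often found on the same enhancers in luminal tumours. TFAP2A encodes AP-2 alpha, which acts at many of these enhancers. SPDEF, ELF3 and EHF are ETS factors of epithelial and secretory cells, and ELF5 directs the alveolar, milk-producing lineage. Notch receptors act in the nucleus through the DNA-binding protein RBPJ, and Notch activity is one of the signals that direct mammary progenitor fate.

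All values are log2 intensities, and a change is the mean of 1 group minus that of another, on this scale, ± its standard error (SE). A gene passed where limma's p, adjusted by Benjamini-Hochberg over 19775 genes, was under 0.05. Whether the arrays of groups overlapped is a description only, because the share of all genes without overlap was not counted. The medians of the antagonism arrays were 7.60 to 7.65 and those of the agonism arrays 6.84 to 6.88, so levels are not compared between them. Antagonism control array 2 stood apart from its group. The SD of the log2 difference over genes was 0.247 to control 1 and 0.320 to control 3, against 0.129 to 0.194 for the other pairs of arrays within a group. Of the markers of basal breast epithelium 7 of 11 were measured, and these, KRT5, KRT14, KRT16, EGFR, CDH3, VIM and CAV1, were above the array median on every array. So were 10 of 10 markers of luminal epithelium, such as KRT8, KRT18 and EPCAM. Of markers of other cell types, 3 of 6 for fibroblasts, 2 of 4 for endothelium and 3 of 4 for leukocytes were above the median too, which sets what a level above the median is worth on these arrays. Notch targets checked the treatments. Of 12 targets measured 5 fell with DAPT against DMSO, 8 rose with A13 and 4 rose with JAG1 beads. Of all 19775 genes 1643 fell with DAPT, 1124 rose with A13 and 587 rose with JAG1 beads. NRARP, a feedback inhibitor of Notch, rose with A13 by 1.90 ± 0.07 and with JAG1 beads by 1.01 ± 0.07, and with DAPT MYC fell by 1.21 ± 0.07 (agonism) and fell by 1.34 ± 0.10 (antagonism). HES1, a Notch-induced repressor, rose by 0.33 ± 0.06 with A13 and 0.22 ± 0.06 with JAG1 beads, and NOTCH3 itself rose by 0.70 ± 0.14 with A13, whereas its change of 0.46 ± 0.14 with JAG1 beads had an adjusted p of 0.0525. With A4 MYC fell by 1.15 ± 0.11, NOTCH3 fell by 0.81 ± 0.11 and HES1 fell by 0.65 ± 0.08. NRARP did not pass with either inhibitor, at -0.19 ± 0.07 (adjusted p = 0.0563) with DAPT in the agonism arrays, and -0.24 ± 0.09 with DAPT and -0.31 ± 0.10 with A4 in the antagonism arrays.

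In the agonism experiment 7 of the 8 factors rose with DAPT, where 12.4% of all genes rose. FOXA1, SPDEF and ELF3 fell with both NOTCH3 antibody A13 and JAG1 beads, where 9.02% and 5.14% of all genes fell. FOXA1 and SPDEF had their lowest means with the agonists and their highest with DAPT, and ELF3 had its lowest mean with A13. GATA3 and TFAP2A had another order, with their lowest values in DMSO and their highest with beads. EHF and ESR1 moved over a narrower range, and ELF5, the alveolar factor, passed in 0 of the 14 comparisons made by its brightest probe set. In the antagonism experiment 0 of the 8 factors passed, where 0.354% of all genes passed with DAPT and 0.101% with A4. With DAPT 5 of the 8 had an unadjusted limma p under 0.05 there, as did 2572 of 19775 genes. Of these 5, ELF5 was lower and the others higher.

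**Figure D1:**
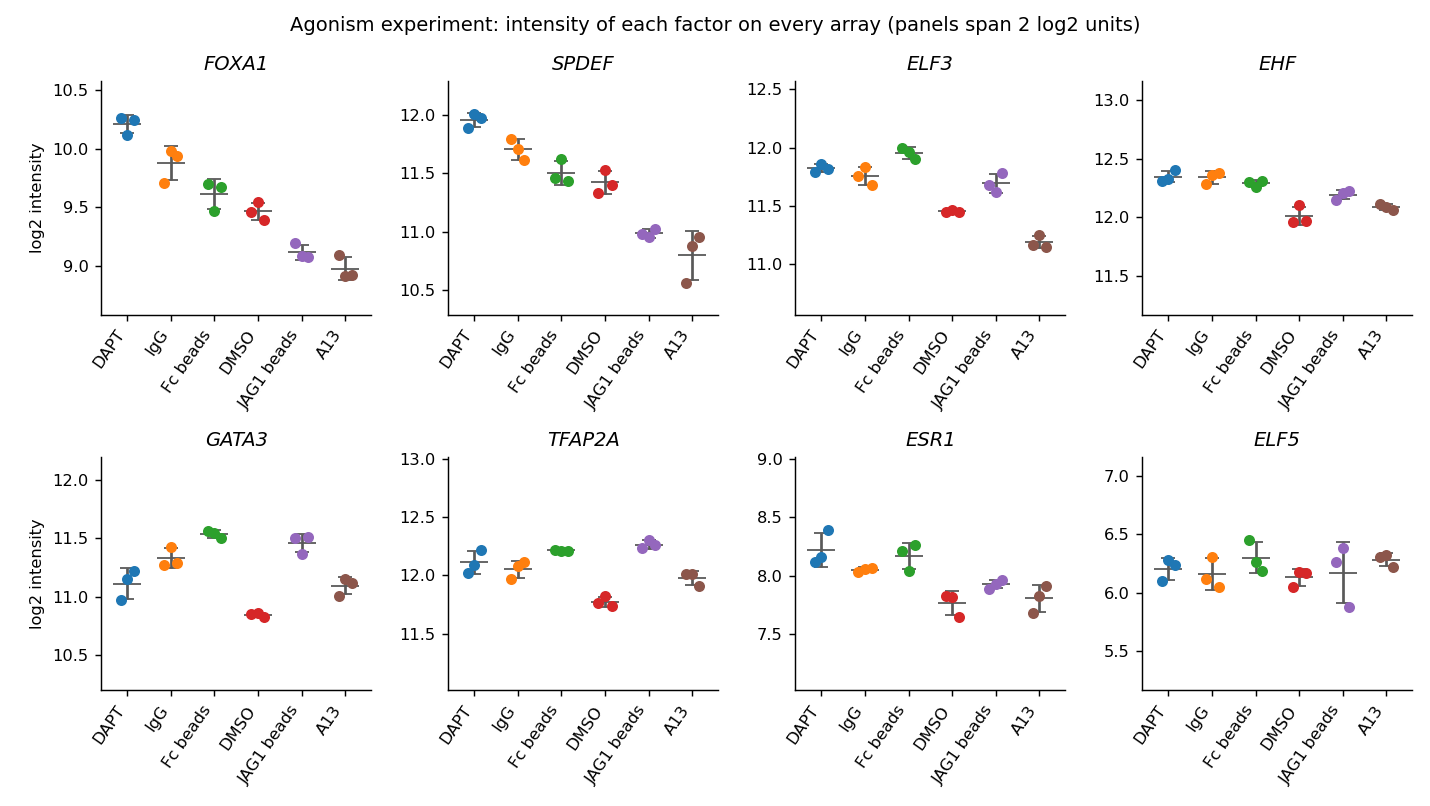
Log2 intensity (vertical axis, each panel spanning 2 log2 units) of the 8 factors on each of the 18 arrays of the agonism experiment, by treatment (horizontal axis), with the bar at the group mean and whiskers of 1 SD (n = 3). FOXA1 and SPDEF run from their highest arrays with DAPT to their lowest with A13, whereas GATA3 and TFAP2A are lowest in DMSO.

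FOXA1 read 10.26, 10.12 and 10.25 on the DAPT arrays, 9.71, 9.98 and 9.94 with IgG, and 9.70, 9.47 and 9.67 with Fc beads. It read 9.46, 9.54 and 9.39 in DMSO, 9.19, 9.08 and 9.07 with JAG1 beads, and 9.09, 8.91 and 8.92 with A13. The DAPT arrays were above all others and the A13 and JAG1 arrays below all others. From the A13 mean of 8.98 to the DAPT mean of 10.21 the span was 1.23 (2.35-fold), the widest of the 8 genes, against a pooled SD within groups of 0.10. Neighbours in the order overlapped between A13 and JAG1 beads and between DMSO and Fc beads, and at no other step.

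SPDEF, an ETS factor of goblet and luminal secretory cells, read 11.89, 12.01 and 11.97 with DAPT, 11.79, 11.71 and 11.61 with IgG, and 11.46, 11.62 and 11.43 with Fc beads. It read 11.33, 11.53 and 11.40 in DMSO, 10.98, 10.95 and 11.02 with JAG1 beads, and 10.56, 10.88 and 10.95 with A13. The order of the 6 groups was that of FOXA1, from A13 at a mean of 10.80 to DAPT at 11.96, a span of 1.16 (2.24-fold). All 6 agonist arrays were below all others. Fc beads overlapped with DMSO and with IgG, and at no other step did neighbours overlap.

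ELF3, an ETS factor of epithelial differentiation, read 12.00, 11.96 and 11.90 with Fc beads, 11.79, 11.86 and 11.82 with DAPT, and 11.76, 11.83 and 11.68 with IgG. It read 11.68, 11.62 and 11.78 with JAG1 beads, 11.45, 11.47 and 11.45 in DMSO, and 11.17, 11.25 and 11.15 with A13. Only the A13 arrays were below DMSO, and the JAG1 arrays overlapped with IgG. The span was 0.76 (1.70-fold) with a pooled SD of 0.06.

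RefSeq promoters of these 3 factors are shown because their genes fell with both agonists, and because Notch reaches DNA through RBPJ. Each window runs 5′ to 3′ on the gene's strand from 250 bases before to 50 bases after the start, on build GRCh38.p14. FOXA1 is on the minus strand at chr14:37595200-37595499, SPDEF on the minus strand at chr6:34556280-34556579, and ELF3 on the plus strand at chr1:202010337-202010636. Capitals mark matches to the RBPJ core TGGGAA on either strand.
FOXA1: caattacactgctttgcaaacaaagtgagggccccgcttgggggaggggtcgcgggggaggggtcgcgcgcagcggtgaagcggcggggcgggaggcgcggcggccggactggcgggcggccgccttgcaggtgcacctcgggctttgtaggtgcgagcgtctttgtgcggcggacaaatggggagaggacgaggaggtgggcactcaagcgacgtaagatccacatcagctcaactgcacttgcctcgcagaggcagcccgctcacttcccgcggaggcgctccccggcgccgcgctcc
SPDEF: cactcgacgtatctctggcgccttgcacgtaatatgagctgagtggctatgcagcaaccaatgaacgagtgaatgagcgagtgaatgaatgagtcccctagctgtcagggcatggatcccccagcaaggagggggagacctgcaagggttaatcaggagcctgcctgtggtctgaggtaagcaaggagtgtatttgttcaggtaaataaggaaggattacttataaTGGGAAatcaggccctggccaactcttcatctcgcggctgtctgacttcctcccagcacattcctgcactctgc
ELF3: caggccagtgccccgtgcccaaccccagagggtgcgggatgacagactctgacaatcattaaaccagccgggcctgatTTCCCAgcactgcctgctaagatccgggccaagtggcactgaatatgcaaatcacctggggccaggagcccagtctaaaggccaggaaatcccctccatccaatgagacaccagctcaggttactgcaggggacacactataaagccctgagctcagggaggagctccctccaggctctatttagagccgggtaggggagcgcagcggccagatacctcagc
SPDEF holds the letters once on the gene's own strand, beginning 24 bases before the start, and ELF3 once on the opposite strand, 172 bases before the start. FOXA1 holds none in this window. Windows of GATA3, EHF, ESR1 and TFAP2A, not shown, hold the letters too, though these genes did not pass with JAG1 beads and TFAP2A passed with neither agonist. The same letters were found in 24.0% of all 35116 promoters of this length in the table, so a match in 1 window is common. None of these 3 windows held the HES and HEY class E-box CACGTG (7.26% of all promoters), the HES class C-site CACGCG (11.4%), the forkhead motif TGTTTAC (3.42%), the GATA motif AGATAA (10.3%), the ETS motif CGGAAG (19.5%) or the AP-2 motif GCCNNNGGC (23.2%), each searched on both strands. No match overlapped another. A match is a string of letters and not a measured site, and these data hold no binding measurement.

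GATA3 read 10.85, 10.86 and 10.83 in DMSO, 11.01, 11.15 and 11.12 with A13, and 10.97, 11.15 and 11.22 with DAPT. It read 11.27, 11.43 and 11.29 with IgG, 11.50, 11.37 and 11.51 with JAG1 beads, and 11.56, 11.55 and 11.50 with Fc beads. The DMSO arrays were below all others, A13 and DAPT overlapped, and JAG1 beads overlapped with IgG and with Fc beads. The span was 0.69 (1.62-fold), from DMSO to Fc beads.

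TFAP2A read 11.76, 11.82 and 11.74 in DMSO, 12.01, 12.01 and 11.91 with A13, and 11.97, 12.08 and 12.11 with IgG. It read 12.02, 12.09 and 12.22 with DAPT, 12.22, 12.21 and 12.21 with Fc beads, and 12.23, 12.30 and 12.26 with JAG1 beads. As for GATA3, the DMSO arrays were lowest without overlap and both bead groups had the highest means. The span was 0.49 (1.40-fold), and from A13 through IgG and DAPT to Fc beads each group overlapped with the next.

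EHF, an ETS factor of epithelia, read 11.96, 12.10 and 11.97 in DMSO, 12.11, 12.09 and 12.06 with A13, and 12.15, 12.21 and 12.22 with JAG1 beads. It read 12.30, 12.26 and 12.31 with Fc beads, 12.28, 12.36 and 12.38 with IgG, and 12.31, 12.33 and 12.40 with DAPT. Its span was 0.34 (1.26-fold) with a pooled SD of 0.05, and Fc beads, IgG and DAPT could not be ordered beyond their overlap. ESR1 read 7.83, 7.82 and 7.65 in DMSO, 7.68, 7.83 and 7.91 with A13, and 7.89, 7.93 and 7.96 with JAG1 beads. It read 8.03, 8.06 and 8.07 with IgG, 8.21, 8.04 and 8.26 with Fc beads, and 8.12, 8.16 and 8.39 with DAPT. The span of ESR1 was 0.45 (1.37-fold), and the only neighbours without overlap were JAG1 beads and IgG. ESR1 was above the median of its own array on every agonism array. Its mean level was nonetheless not above the median of the genes' mean levels, and no detection calls say whether it was expressed.

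ELF5 ranged from 5.88 on a JAG1 array to 6.45 on an Fc bead array, and every neighbouring pair of groups overlapped. Its span of 0.17 (1.12-fold) was of the size of its pooled SD of 0.14. The probe set was below the median of its own array on all 26 arrays, though never below the lower quartile, and the deposited values carry no detection calls. ELF5 and EHF are neighbours on chromosome 11, with 0 protein-coding genes between them in the reference gene table, and their patterns over the 18 arrays had a Pearson r of 0.09.

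The first comparison asked what blocking gamma-secretase did to cells with their own Notch activity. With DAPT against DMSO, 7 of 8 factors rose and 0 fell, where 20.7% of all genes passed and 12.4% rose. FOXA1 rose by 0.75 ± 0.08 (1.68-fold, adjusted p = 8.42e-06) and SPDEF by 0.54 ± 0.09 (1.45-fold, adjusted p = 0.000305). ESR1 rose by 0.45 ± 0.08, ELF3 by 0.37 ± 0.06, EHF by 0.34 ± 0.05, TFAP2A by 0.34 ± 0.06 and GATA3 by 0.27 ± 0.07, with adjusted p between 0.000279 for ELF3 and 0.00932 for GATA3. None of these 7 genes had overlapping arrays, which is not separate support. GATA3 lost its call without DAPT array 3 (0.21 ± 0.07, adjusted p = 0.0642), with only these groups in the fit (adjusted p = 0.0524) and without _x_at and _s_at probe sets. ELF3 lost its call under the last of these too, and the mean of a gene's probe sets ended the calls of FOXA1, EHF and ESR1. ELF5 changed by 0.08 ± 0.11 (adjusted p = 0.702). The median change of the 8 factors was 0.35, against 0.016 over all genes. In cell cultures measured in bulk, fewer cells of a kind and less RNA per cell cannot be told apart. The summed intensity of the 10 luminal markers lay between 71700 and 78910 on the DMSO arrays and between 89290 and 91510 on the DAPT arrays, and that of the 7 basal markers between 21100 and 21980 and between 20080 and 22420. Their part in the result was not tested.

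**Figure D2:**
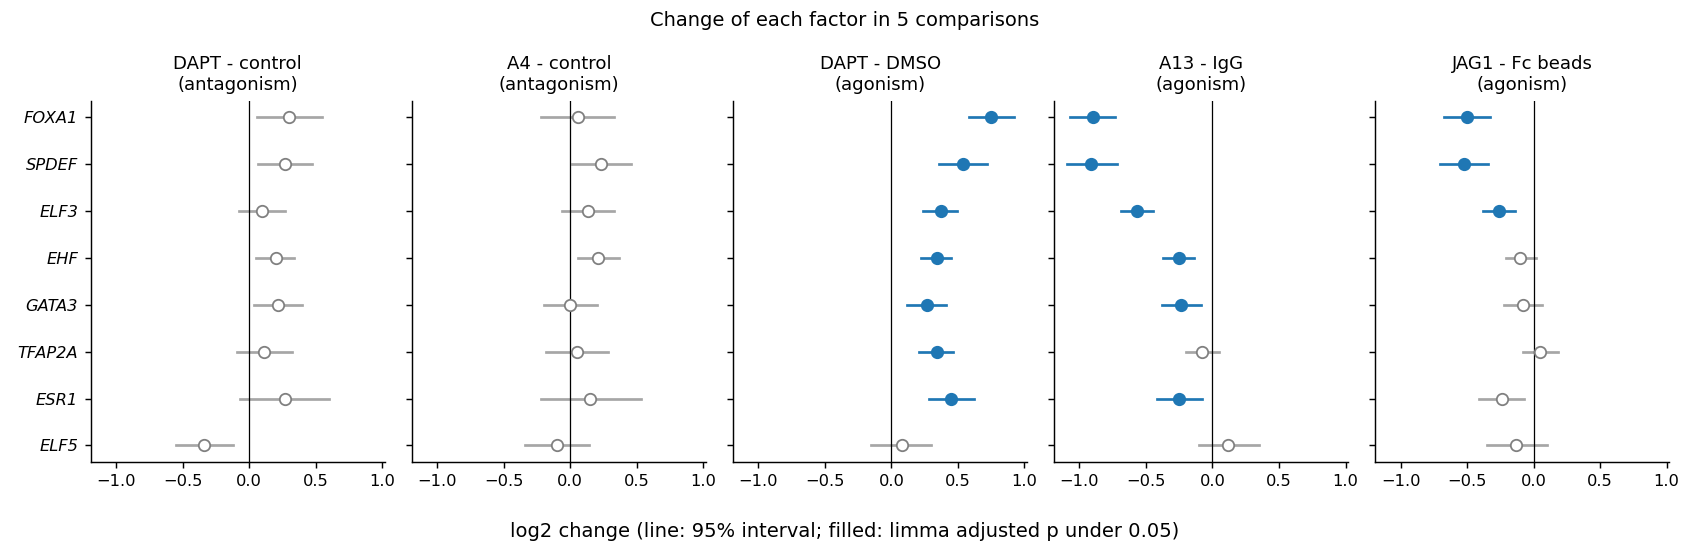
Log2 change (horizontal axis) of each factor in 5 comparisons, with 95% intervals and filled points where limma's adjusted p was under 0.05. The points of FOXA1, SPDEF and ELF3 are filled on the right with DAPT and on the left with A13 and JAG1 beads, and no point is filled in the antagonism experiment.

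The second comparison asked what the agonist antibody did after DAPT had been washed away. With A13 against IgG, 6 of 8 factors fell and 0 rose, where 14.7% of all genes passed and 9.02% fell. SPDEF fell by 0.91 ± 0.09 (1.88-fold, adjusted p = 7.3e-07), FOXA1 fell by 0.90 ± 0.08 (1.87-fold, adjusted p = 3.27e-07) and ELF3 fell by 0.57 ± 0.06 (1.48-fold, adjusted p = 1.51e-06). EHF fell by 0.25 ± 0.05 (adjusted p = 0.00324), GATA3 fell by 0.24 ± 0.07 (adjusted p = 0.0247) and ESR1 fell by 0.25 ± 0.08 (adjusted p = 0.0457). TFAP2A changed by -0.08 ± 0.06 (adjusted p = 0.497) and ELF5 by 0.12 ± 0.11 (adjusted p = 0.533). The median change of the 8 factors was -0.25, against -0.026 over all genes. The calls of ESR1 and GATA3 were near the threshold. ESR1 lost its call in 9 of 14 alternatives, among them leaving out any IgG array or A13 array 1 or 2 (highest adjusted p over all alternatives 0.600), and GATA3 lost its call in 5 of 15, among them leaving out A13 array 1 or IgG array 2 (highest 0.202). The luminal marker sum was between 79600 and 81130 with IgG and between 67140 and 69990 with A13, and the basal sum between 24060 and 25310 and between 36480 and 38200. Their part in the result was not tested.

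JAG1 beads were compared with Fc beads, which carry no ligand. FOXA1, SPDEF and ELF3 fell, so that 3 of 8 factors passed where 8.11% of all genes passed and 5.14% fell. SPDEF fell by 0.52 ± 0.09 (1.43-fold, adjusted p = 0.000866), FOXA1 fell by 0.50 ± 0.08 (1.41-fold, adjusted p = 0.000662) and ELF3 fell by 0.26 ± 0.06 (1.20-fold, adjusted p = 0.00812). ESR1 changed by -0.24 ± 0.08 (adjusted p = 0.0769) and its arrays did not overlap. EHF changed by -0.10 ± 0.05, GATA3 by -0.08 ± 0.07, ELF5 by -0.13 ± 0.11 and TFAP2A by 0.05 ± 0.06, with adjusted p between 0.340 and 0.713. ELF3's call was lost with a fit of only these 6 arrays (adjusted p = 0.0653). The luminal marker sum lay between 78890 and 81740 with Fc beads and between 68430 and 70390 with JAG1 beads, and the basal sum between 28310 and 29690 and between 37210 and 38500. Their part was not tested.

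Whether both agonists acted alike was tested as the JAG1 effect minus the A13 effect. Of the 8 factors 0 passed, where 0.182% of all genes did. An unadjusted limma p under 0.05 was found for 3 factors and for 1173 of 19775 genes. The difference was 0.40 ± 0.11 for FOXA1 (95% interval 0.16 to 0.64, adjusted p = 0.342), 0.39 ± 0.12 for SPDEF (0.13 to 0.65, adjusted p = 0.505) and 0.31 ± 0.08 for ELF3 (0.14 to 0.48, adjusted p = 0.256). Each of these intervals lay on the side of a smaller fall with JAG1 beads, but they are not adjusted for the number of genes. The effects also have different controls. Fc beads differed from IgG by -0.26 ± 0.08 for FOXA1, -0.20 ± 0.09 for SPDEF and 0.20 ± 0.06 for ELF3, with 0 of these passing. The FOXA1 arrays of A13 and JAG1 beads overlapped. A13 was given in solution and JAG1 on beads, and no dose of the beads is given, so the effects are set side by side without being matched.

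Against cells kept in DAPT, A13 lowered 5 of 8 factors, where 28.2% of all genes passed and 16.2% fell. FOXA1 fell by 1.23 ± 0.08 (adjusted p = 1.58e-09), SPDEF fell by 1.16 ± 0.09, ELF3 fell by 0.63 ± 0.06, ESR1 fell by 0.41 ± 0.08 and EHF fell by 0.26 ± 0.05, whereas GATA3 changed by -0.02 ± 0.07 (adjusted p = 0.878). With JAG1 beads against DAPT 4 fell and GATA3 rose, where 33.2% of all genes passed. FOXA1 fell by 1.09 ± 0.08 and SPDEF fell by 0.98 ± 0.09, ESR1 fell by 0.29 ± 0.08 and EHF fell by 0.15 ± 0.05, and GATA3 rose by 0.34 ± 0.07 (adjusted p = 0.000578). ELF3 changed by -0.13 ± 0.06 (adjusted p = 0.104). ESR1 lost its call without DAPT array 3 (adjusted p = 0.0594) and with the mean of its probe sets. The fall of EHF had an adjusted p of 0.0373 and was lost in 9 of 15 alternatives, among them leaving out any JAG1 array or DAPT array 2 or 3. These comparisons use the same DAPT arrays as each other, and so are not separate evidence.

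A13 was also set against DMSO, that is against cells with their own Notch activity and no DAPT at any time. FOXA1 fell by 0.49 ± 0.08, SPDEF fell by 0.62 ± 0.09 and ELF3 fell by 0.27 ± 0.06, whereas GATA3 rose by 0.25 ± 0.07 and TFAP2A rose by 0.20 ± 0.06. These are 5 of 8 factors, where 30.9% of all genes passed. TFAP2A had an adjusted p of 0.0141 and lost its call without A13 array 1 or 2 or DMSO array 3. EHF changed by 0.08 ± 0.05 and ESR1 by 0.04 ± 0.08.

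The washout itself was read from IgG against DAPT. FOXA1 fell by 0.33 ± 0.08 (adjusted p = 0.0134) and was the only factor to pass, where 9.77% of all genes passed and 5.62% fell. It lost the call without IgG array 1 (adjusted p = 0.0818) or DAPT array 1 (adjusted p = 0.0654). SPDEF changed by -0.25 ± 0.09 (adjusted p = 0.0758) and GATA3 by 0.22 ± 0.07 (adjusted p = 0.0547), without overlap of their arrays. Leaving out DAPT array 3 brought GATA3 past the threshold (adjusted p = 0.0285).

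After washout most factors were above their DMSO levels. With IgG against DMSO 7 of 8 rose, where 30.6% of all genes passed and 17.9% rose. Of the 12 Notch targets 5 rose and 0 fell in this comparison, with NOTCH3 at 0.60 ± 0.14 and MYC at 0.24 ± 0.07. The DAPT, A13 and IgG comparisons with DMSO use the same DMSO arrays, and so are not separate evidence. DMSO had the lowest mean of the agonism groups for GATA3, ELF5, EHF, ESR1 and TFAP2A. GATA3 rose by 0.48 ± 0.07 (1.40-fold, adjusted p = 5.55e-05), FOXA1 by 0.42 ± 0.08, EHF by 0.33 ± 0.05, ELF3 by 0.30 ± 0.06, SPDEF by 0.29 ± 0.09, ESR1 by 0.29 ± 0.08 and TFAP2A by 0.28 ± 0.06, and ELF5 changed by 0.03 ± 0.11. SPDEF lost its call without IgG array 1 or DMSO array 1 or 3, and ESR1 without DMSO array 3. Fc beads against IgG moved 0 of 8 past the threshold, where 2.08% of all genes passed. An unadjusted limma p under 0.05 was found for 5 factors and for 2893 of 19775 genes. Of the 12 Notch targets 1 rose there, MYC by 0.44 ± 0.07. GATA3 changed by 0.21 ± 0.07, ELF3 by 0.20 ± 0.06, TFAP2A by 0.16 ± 0.06, SPDEF by -0.20 ± 0.09 and FOXA1 by -0.26 ± 0.08, with adjusted p between 0.0965 and 0.286.

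The antagonism experiment asked the question without washout. With DAPT against the control, 0 of 8 factors passed, where 0.354% of all genes (70) did. An unadjusted limma p under 0.05 was found for 5 factors and for 2572 of 19775 genes. FOXA1 read 10.35, 10.22 and 10.42 in the control and 10.58, 10.53 and 10.78 with DAPT, a change of 0.30 ± 0.11 (adjusted p = 0.285). SPDEF read 11.37, 11.48 and 11.62 against 11.65, 11.78 and 11.84, a change of 0.27 ± 0.09 (adjusted p = 0.254). In both genes the DAPT arrays were all above the control arrays. EHF read 12.35, 12.25 and 12.34 against 12.47, 12.52 and 12.54 (0.20 ± 0.06), and GATA3 11.55, 11.39 and 11.60 against 11.72, 11.80 and 11.68 (0.22 ± 0.08). ELF5 read 7.38, 7.44 and 7.39 against 7.22, 6.89 and 7.08, a change of -0.34 ± 0.10 (adjusted p = 0.181), and was the only factor lower with DAPT. ELF3 changed by 0.10 ± 0.08, without overlap of its arrays, ESR1 by 0.27 ± 0.15 and TFAP2A by 0.11 ± 0.09. Without control array 2, 0 of 8 passed as well, although the count over all genes became 1198. FOXA1 then changed by 0.25 ± 0.11 and SPDEF by 0.26 ± 0.10. The fit had 5 residual degrees of freedom, against 12 in the agonism experiment. The luminal marker sum lay between 83060 and 91720 in the control, between 83110 and 93370 with DAPT and between 94240 and 97630 with A4. The basal sum lay between 30900 and 33530, between 26420 and 28260 and between 27540 and 29530, without overlap of the control with DAPT or A4. Their part in the values was not tested.

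**Figure D3:**
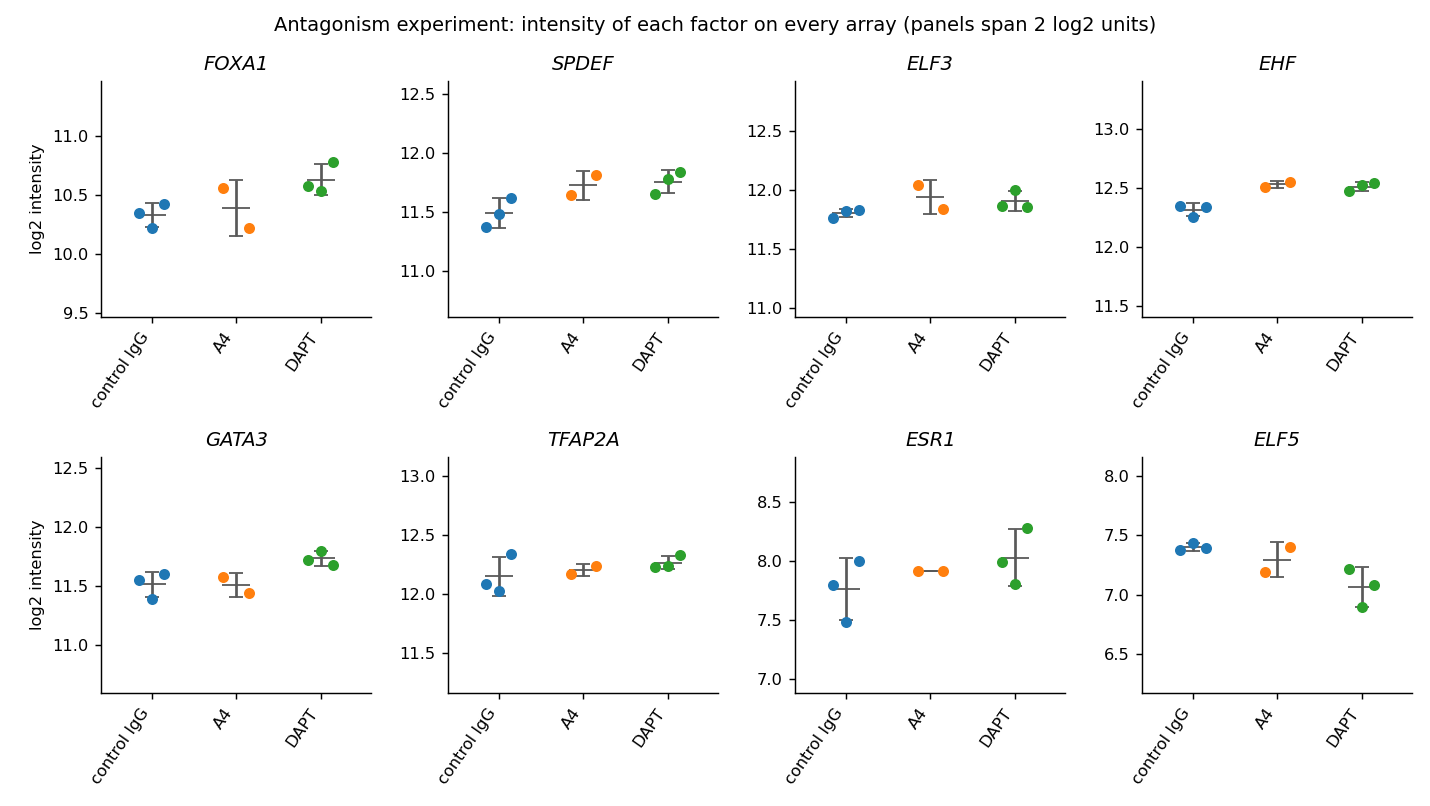
Log2 intensity (vertical axis, each panel spanning 2 log2 units) of the 8 factors on the 8 arrays of the antagonism experiment, by treatment, with the bar at the mean and whiskers of 1 SD (n = 3, and n = 2 for A4). In FOXA1, SPDEF, ELF3, EHF and GATA3 the DAPT arrays lie above the control arrays, and in ELF5 below them.

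A4, the antibody to NOTCH3, was read on 2 arrays. EHF read 12.51 and 12.55, above all 3 control arrays (0.21 ± 0.07, adjusted p = 0.364), and SPDEF read 11.64 and 11.81, also above them (0.23 ± 0.10, adjusted p = 0.524). ELF3 read 12.04 and 11.84, above the control arrays as well (0.13 ± 0.09, adjusted p = 0.693). FOXA1 read 10.56 and 10.22 and changed by 0.06 ± 0.12. Of the 8 factors 0 passed, where 0.101% of all genes did. An unadjusted limma p under 0.05 was found for 2 factors and for 1836 of 19775 genes. A4 against DAPT also gave 0 of 8, where 0% of all genes passed. There 1 factor, GATA3 (-0.22 ± 0.09), had an unadjusted limma p under 0.05, as did 1628 of 19775 genes. A4 and DAPT were read against the same control arrays.

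The DAPT effects of both experiments were compared as a difference of differences over all 26 arrays. The antagonism effect minus the agonism effect was -0.45 ± 0.13 for FOXA1 (95% interval -0.72 to -0.17, adjusted p = 0.0461), and 1 of 8 factors passed, where 6.12% of all genes passed and 3.27% were lower. The difference was -0.27 ± 0.09 for ELF3 (adjusted p = 0.0694), -0.27 ± 0.13 for SPDEF and -0.41 ± 0.15 for ELF5 (adjusted p = 0.102). FOXA1 lost its call in 13 of 21 alternatives, and in 1 of these, the mean of its probe sets, the sign turned (0.22). The others include leaving out any 1 of control array 1 or 3, antagonism DAPT array 1 or 2, DMSO array 1 or 3, or agonism DAPT array 1 or 3. The experiments differ in plating, in IgG and in washout, and these cannot be told apart.

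The other probe sets followed the main one in ELF3 and in part elsewhere. In these counts p is adjusted over 41097 probe sets. All 3 ELF3 probe sets fell with A13 (-0.71 to -0.57) and with JAG1 beads (-0.34 to -0.26), and 2 rose with DAPT. Of the 5 SPDEF probe sets, 220192_x_at, 213441_x_at and 214404_x_at rose with DAPT (0.44 to 0.54) and fell with A13 (-0.91 to -0.67) and JAG1 beads (-0.59 to -0.48). The other 2, 213442_x_at and 214403_x_at, passed in none of these 3 comparisons, with changes between -0.09 and 0.03. All SPDEF probe sets are of the _x_at kind, which can also detect related transcripts.

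FOXA1's second probe set, 237086_at, went another way. It read 9.27, 8.54 and 9.44 in DMSO and 8.95, 8.88 and 8.62 with DAPT, but 7.35, 7.30 and 7.70 with IgG and 7.54, 7.19 and 7.38 with Fc beads. It read 7.18, 7.21 and 6.94 with A13 and 6.58, 6.93 and 6.42 with JAG1 beads. The DMSO and DAPT arrays were therefore high and all 12 others low, without overlap. Against DAPT, IgG differed by -1.36 ± 0.19 on this probe set (adjusted p = 0.000132), and against DMSO by -1.63 ± 0.19 (adjusted p = 1.73e-05), where 204667_at rose. DAPT against DMSO gave -0.26 ± 0.19 (adjusted p = 0.395), JAG1 beads against Fc beads -0.73 ± 0.19 (adjusted p = 0.0290) and A13 against IgG -0.34 ± 0.19 (adjusted p = 0.304). With the mean of both, FOXA1's rise with DAPT was 0.24 (adjusted p = 0.118) and its change with A13 was -0.62 (adjusted p = 0.000392), while IgG against DMSO turned to -0.61 (adjusted p = 0.000274).

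EHF and ESR1 rested on 1 probe set. Of the 6 for EHF, 225645_at alone passed with DAPT and with A13, and 232360_at differed between IgG and DMSO by -0.90 ± 0.14 (adjusted p = 0.000129), against the direction of 225645_at. Of the 9 for ESR1, 205225_at alone passed with DAPT and 0 passed with A13. GATA3 probe set 209602_s_at rose with DAPT by 0.52 ± 0.10 (adjusted p = 0.00208), and 209604_s_at alone of the 3 fell with A13. TFAP2A probe set 204654_s_at rose with DAPT by 0.46 ± 0.08, while 210669_at changed by -0.01. Neither ELF5 probe set passed with DAPT against DMSO or with A13 against IgG. With A13 against DMSO 1 of the 2, not the brightest, was lower (-0.25).

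**Figure D4:**
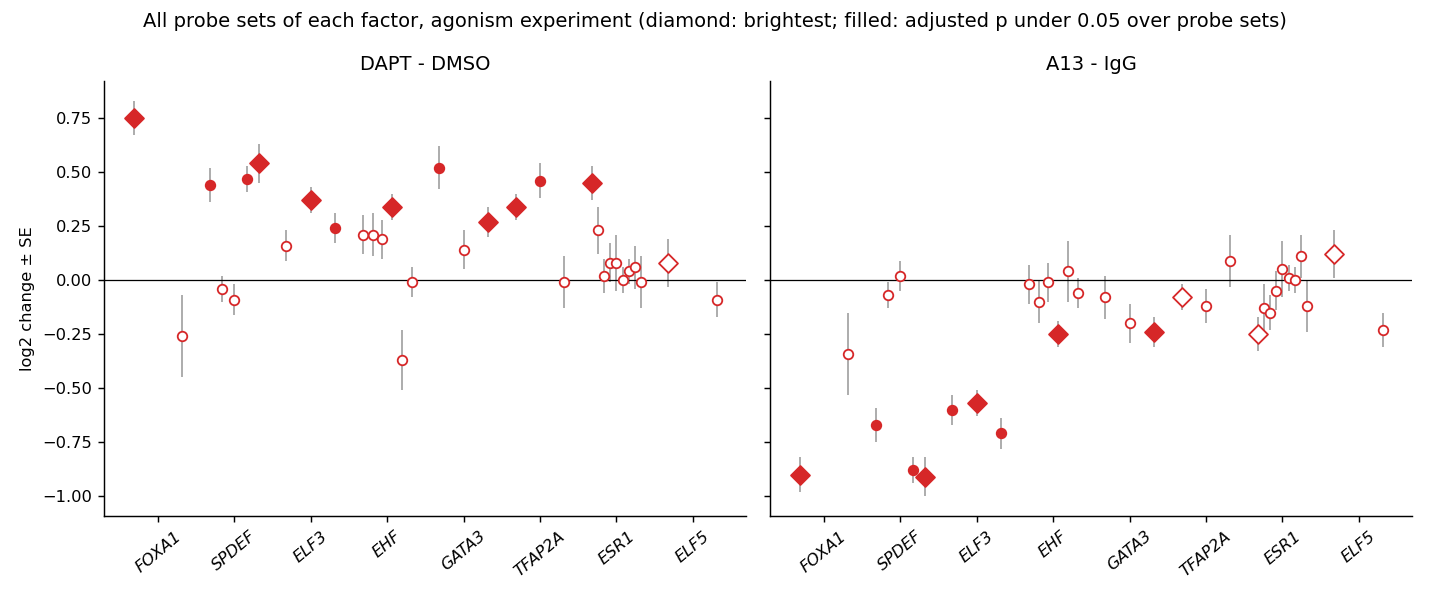
Log2 change ± SE (vertical axis) of all 33 probe sets of the 8 factors (horizontal axis) with DAPT against DMSO and with A13 against IgG, with diamonds for the brightest probe set and filled symbols for an adjusted p under 0.05 over all probe sets. With A13 the filled symbols are 3 of 3 for ELF3, 3 of 5 for SPDEF, and 1 each for FOXA1, EHF and GATA3.

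How alike the factors ran across the 18 agonism arrays is given here as a description, over arrays that share 6 treatments. Pearson r was 0.92 for FOXA1 with SPDEF and 0.87 for GATA3 with TFAP2A, but -0.02 for FOXA1 with GATA3 and -0.01 for SPDEF with TFAP2A. EHF with ESR1 gave 0.86, ELF3 with ESR1 0.77 and ELF3 with EHF 0.76. These 3 went with both pairs, ELF3 with FOXA1 and with GATA3 at 0.64 each, EHF with FOXA1 at 0.71 and with TFAP2A at 0.68, and ESR1 with FOXA1 at 0.70 and with TFAP2A at 0.60. ELF5 stood apart, with r between -0.12 and 0.23. Taken as deviations from the group means, r was -0.60 for FOXA1 with SPDEF and 0.80 for EHF with TFAP2A, so the likeness of FOXA1 and SPDEF lies between the treatments and not among arrays of a treatment.

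The genes most like each factor over the same 18 arrays were sought among those above the median level. For FOXA1 they were ASAH1, an acid ceramidase (r = 0.976), the RNA-binding protein RBPMS (0.975) and the steroid sulphatase STS (0.967). For SPDEF they were ETHE1 (0.985), the lipid droplet protein PLIN3 (0.980) and PLAAT3 (0.979), and for ELF3 the long non-coding RNA UCA1 (0.981), NT5E (0.970) and TACC1 (0.962). GATA3 was most like PRSS8, a membrane-anchored serine protease (0.973), SUSD6 (0.970) and PHF1 (0.969), and TFAP2A most like ATF6 (0.962), SASH1 (0.960) and NEDD4L (0.958). EHF was most like CDH1, which encodes E-cadherin (0.974), VOPP1 (0.962) and SCARB2 (0.960), and ESR1 most like PPME1 (0.930), CYFIP1 (0.924) and NVL (0.917). ELF5 had no gene above 0.711.

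Relatives of the factors went both ways. For the lists that follow, the shares of all genes that passed were 20.7% with DAPT against DMSO, 14.7% with A13 against IgG and 8.11% with JAG1 beads against Fc beads. Of 30 paralogs 10 rose and 1 fell with DAPT (median 0.18), 1 rose and 4 fell with A13, and 2 rose and 2 fell with JAG1 beads, so that with A13 and JAG1 beads the members passing were near the share of all genes. GATA6, a GATA factor of endoderm, rose with DAPT by 0.61 ± 0.13. GATA2 rose with DAPT by 0.35 ± 0.10, fell by 0.43 ± 0.10 with A13 and fell by 0.34 ± 0.10 with JAG1 beads. ETS1, an ETS factor outside the epithelial group, rose with A13 by 0.58 ± 0.09 and with JAG1 beads by 0.43 ± 0.09, the opposite direction to SPDEF and ELF3. With A13 FOXA3 fell by 0.50 ± 0.09 and TFAP2B fell by 0.47 ± 0.13. Of 25 other luminal regulators 11 rose and 1 fell with DAPT, 2 rose and 7 fell with A13, and 0 rose and 3 fell with JAG1 beads, the last near the share of all genes. KLF4, a factor of epithelial differentiation, rose with DAPT by 1.02 ± 0.09 and fell by 0.49 ± 0.09 with A13. MYB, an oestrogen-responsive factor, rose with DAPT by 0.61 ± 0.07 and fell by 0.49 ± 0.07 with A13. XBP1, of the unfolded protein response of secretory cells, rose with DAPT by 0.42 ± 0.08 and fell by 0.26 ± 0.08 with A13.

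Secretory and epithelial genes often placed downstream of these factors mostly rose with DAPT, and about as many fell with each agonist as did not pass. Of 30 measured, 20 rose and 1 fell with DAPT (median 0.39, all genes 0.016), 1 rose and 16 fell with A13 (median -0.23), and 0 rose and 13 fell with JAG1 beads (median -0.19). Over all genes 12.4% rose with DAPT, 9.02% fell with A13 and 5.14% fell with JAG1 beads. SCGB2A2, the secretory mammaglobin, rose with DAPT by 1.95 ± 0.15, fell by 2.12 ± 0.15 with A13 and fell by 1.17 ± 0.15 with JAG1 beads. MUCL1, a small breast mucin, gave 1.09 ± 0.08, -1.81 ± 0.08 and -1.16 ± 0.08 in these comparisons, and AGR2, a disulphide isomerase of mucin-producing cells, 0.93 ± 0.07, -1.47 ± 0.07 and -1.27 ± 0.07. PIP, a secreted apocrine protein, rose with DAPT by 1.60 ± 0.11 and fell by 0.98 ± 0.11 with A13, and the adhesion protein CEACAM6 rose with DAPT by 1.17 ± 0.08 and fell by 0.73 ± 0.08 with A13. SLPI, a protease inhibitor, fell with DAPT (-0.19 ± 0.05) and CEACAM5 rose with A13 (0.20 ± 0.06), against the direction of the other members that passed. In the antagonism experiment AGR2 rose with DAPT by 1.02 ± 0.07 and with A4 by 0.69 ± 0.08, and ELAPOR1 rose with DAPT by 0.77 ± 0.11. Thus 2 of 30 passed with DAPT and 1 with A4, where 0.354% and 0.101% of all genes passed.

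**Figure D5:**
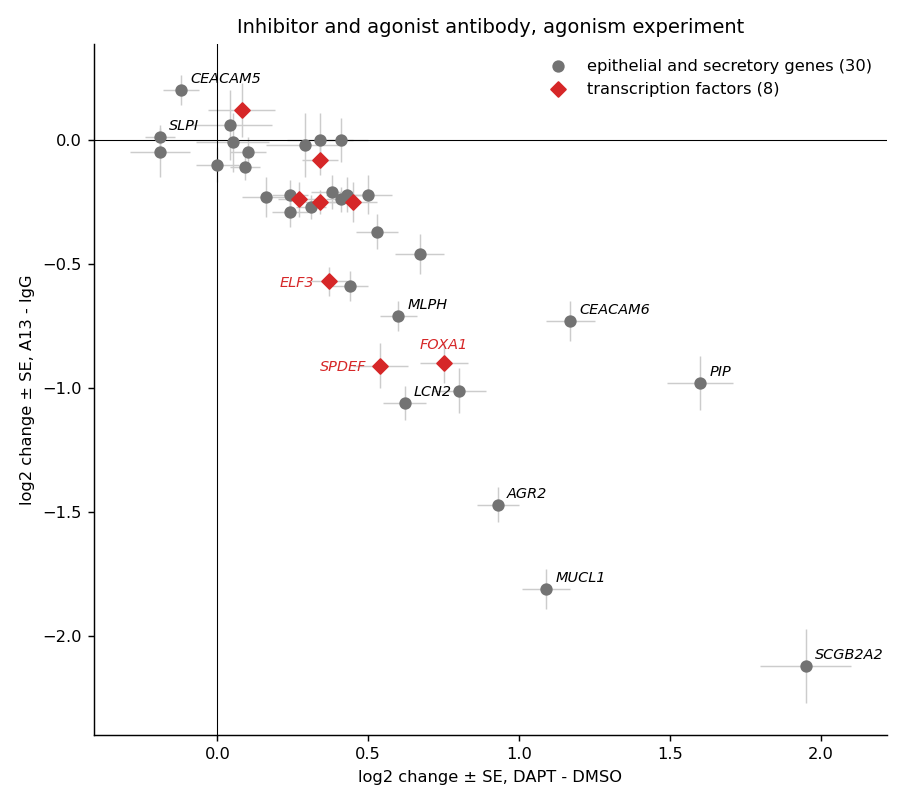
Log2 change ± SE with DAPT against DMSO (horizontal axis) and with A13 against IgG (vertical axis) for the 8 factors (diamonds) and 30 epithelial and secretory genes (circles) in the agonism experiment; the comparisons share no arrays. SCGB2A2, MUCL1, AGR2 and PIP lie farther from 0 than the factors, with a rise on the horizontal and a fall on the vertical axis.

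Genes known as oestrogen-induced were read beside ESR1. Of 29 measured, 4 rose and 1 fell with DAPT, 4 rose and 3 fell with A13, and 1 rose and 2 fell with JAG1 beads, with medians of 0.08, 0.00 and -0.01. The counts with DAPT and JAG1 beads were near the shares of all genes that passed, 20.7% and 8.11%. The count with A13 was above its share of 14.7%, with members in both directions. PDZK1, a scaffold protein, rose with DAPT by 0.98 ± 0.11, fell by 1.77 ± 0.11 with A13 and fell by 1.57 ± 0.11 with JAG1 beads. CTSD, a lysosomal protease, gave 0.52 ± 0.08, -0.45 ± 0.08 and -0.39 ± 0.08. STC2, a secreted stress-responsive glycoprotein, rose with A13 by 0.82 ± 0.11 and with JAG1 beads by 0.51 ± 0.11.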

How the data were processed

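Each probe set of an array has an intensity that the authors deposited unlogged (7.12 to 32597). The submitters' processing notes name RMA and R 2.10 without saying what each did. RMA corrects background and makes the distributions of arrays alike, so a change of most transcripts in 1 direction would be reduced, and it gives no detection calls. The plan for the tests assumed log2 values, so log2 was taken of the deposited intensities and the test stayed as planned.

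The 8 factors and the gene lists were chosen with earlier results of these data known. Of 54675 probe sets 41097 have 1 gene symbol, 1801 several and 11777 none. The brightest single-gene probe set by mean log2 stood for each of 19775 genes, with no filter on low values. The table held 0 columns of other samples.

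Groups came from the treatment labels, which give no replicate numbers, batches or dates. Arrays are numbered in the order listed. The test was limma 3.58.1 under R 4.3.3 (no trend, not robust), with all groups of an experiment in 1 fit and Benjamini-Hochberg adjustment. The difference of the DAPT effects was fitted over all 26 arrays. The fit was tested on simulated data. The number of arrays limits the precision, and the median SE of a DAPT effect was 0.088 (antagonism) and 0.081 (agonism). Named genes are the 8 factors, passing members of the lists, the 3 genes most like each factor, and NRARP, HES1, NOTCH3 and MYC as the check of treatment. Alternatives changed the scaling, the probe sets, the genes tested, the variance model, an added intensity of 16 before log2, and left out each array in turn. Promoters are from RefSeq, GRCh38.p14, and the table held 20 for the 8 genes. The plots are by matplotlib 3.10.9 (Python 3.11.15).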

Additional observations from a re-analysis of the deposited data

Results flagged for a closer look

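The effect of DAPT was compared between the experiments by the test of the difference itself (limma, antagonism effect minus agonism effect). Over 41097 probe sets it differed for 1 GATA3 and 1 TFAP2A probe set, where 648 of all probe sets were higher and 790 lower. FOXA1's brightest probe set passed only in the test over genes. For FOXA1 (204667_at) the difference was -0.45 ± 0.13 (SE, adjusted p = 0.0461 over genes), with DAPT effects of 0.30 ± 0.11 (antagonism) and 0.75 ± 0.08 (agonism). Over all 41097 probe sets the same difference had an adjusted p of 0.0643, and the call over genes was lost in 13 of 21 alternatives. FOXA1's other probe set, 237086_at, gave 0.62 ± 0.18 (antagonism) and -0.26 ± 0.19 (agonism).

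For GATA3 the brightest probe set showed no such call (-0.05 ± 0.10), but 209602_s_at differed by -0.61 ± 0.14 (adjusted p = 0.0204 over probe sets). It read 9.83, 9.75 and 9.99 in the antagonism control and 9.76, 9.74 and 9.78 with DAPT, and 8.58, 8.69 and 8.40 in DMSO and 9.15, 8.93 and 9.13 with DAPT in the agonism experiment. For TFAP2A, 204654_s_at differed by -0.61 ± 0.11 (adjusted p = 0.00571 over probe sets). It read 10.41, 10.26 and 10.28 in the control and 10.13, 10.19 and 10.15 with DAPT, and 9.21, 9.16 and 9.23 in DMSO and 9.57, 9.64 and 9.75 with DAPT in the agonism experiment. The TFAP2A arrays thus lay lower with DAPT in 1 experiment and higher in the other, and neither pair of groups overlapped. The experiments differ in plating, control IgG and washout, which cannot be told apart here.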

How the results depend on the processing

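No paired analysis was possible because the labels give no replicate numbers. Over the 8 factors and 14 comparisons, 1607 recomputed values stayed on their side of the threshold, 51 of which changed sign without a call in either setting. A further 63 lost a call in the same direction, 31 gained one, and 3 called values reversed, 2 of them losing the call. With the mean of a gene's probe sets, IgG against DMSO became -0.61 for FOXA1 and -0.09 for EHF, and FOXA1's difference of the DAPT effects became 0.22. In these 3 the probe sets disagree. No scaling moved the median of all genes by over 0.1.

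The number of all genes that passed moved with the setting too, so a changed count is not read as a result about the factors alone. Without _x_at and _s_at probe sets, which leaves 6 factors, DAPT against DMSO passed 4 factors, A13 against IgG 3 and A13 against DMSO 3. With the mean of probe sets, DAPT against DMSO passed 4, IgG against DMSO 3, A13 against IgG 3 and IgG against DAPT 2. IgG against DAPT, with 1 factor in the report, passed 0 with only those groups in the fit, 2 with quantile normalization or the added intensity, 3 among genes above the median level or with a trended, robust variance, and 0 to 2 when an array was left out. Over all genes, IgG against DAPT called 821 higher and 1111 lower in the report. Among genes above the median level, which are fewer, it called 1155 and 1338, and with a trended, robust variance 1097 and 1451. Fc beads against IgG, with 0, passed 1 with quantile normalization and 3 among genes above the median level or with a trended, robust variance. Genes called there went from 324 higher and 87 lower to 636 and 207 above the median level, and 564 and 197 with the trended, robust variance. The difference of the agonist effects, with 0, passed 1 with a trended, robust variance (ELF3). Genes called in that difference went from 23 higher and 13 lower to 47 and 32. The difference of the DAPT effects, with 1, passed 0 with only the groups compared, median centring, no _x_at or _s_at probe sets, all probe sets, or the mean of probe sets. It passed 2 with quantile normalization, genes above the median level, or a trended, robust variance, and 0 to 1 when an array was left out. Genes called for it were 564 higher and 647 lower in the report, and 21 and 51 with only the groups compared. They were 868 and 1125 above the median level, and 1.65% to 14.3% of all genes when an array was left out.

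The falls of FOXA1, SPDEF and ELF3 with A13 passed in all 15, 14 and 15 alternatives run, with changes of -0.98 to -0.62, -0.98 to -0.50 and -0.62 to -0.53. The cause of the other changes in count was not tested. SPDEF and ELF5 have no value without _x_at and _s_at probe sets.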

Other observations

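Regulators known from basal or mesenchymal breast cells were not among the 8 factors, and most did not pass with either agonist. Of 24 measured, 7 rose and 1 fell with A13 (median 0.07), where 14.7% of all genes passed and 1124 of 19775 rose. With JAG1 beads 5 rose and 0 fell (median 0.04), where 8.11% of all genes passed and 587 of 19775 rose. FOXQ1, a forkhead factor linked to mesenchymal change, rose with A13 by 1.47 ± 0.09 and with JAG1 beads by 0.64 ± 0.09. ID4, an inhibitor of basic helix-loop-helix factors, rose by 1.16 ± 0.12 and 0.70 ± 0.12, and with DAPT fell by 0.92 ± 0.12 (agonism) and fell by 1.10 ± 0.17 (antagonism). RUNX3 rose by 0.89 ± 0.08 with A13 and 0.63 ± 0.08 with JAG1 beads, SOX9 by 0.53 ± 0.08 and 0.38 ± 0.08, and BCL11A by 0.62 ± 0.07 with A13. STAT3 fell with A13 (-0.21 ± 0.06). With DAPT against DMSO 4 of 24 rose and 1 fell, where 20.7% of all genes passed.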
